A study of Rattus norvegicus with 14 samples.

Results

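The rat genome assembly mRatBN7.2 holds, beside its chromosomes, a set of short scaffolds that could not be put in place, and the CpG cytosines on these scaffolds are described here across a wound-repair study of the oesophagus. A sequence was counted as a scaffold when its name joined several parts, as in chrUn_NW_023637849v1. Unplaced scaffolds belong to no known chromosome (chrUn), and unlocalised ones belong to a chromosome but have no position on it (the names ending in random). Kept cytosines are those covered by 5 or more reads in 3 or more libraries of every group. This left 8372 of 514813 kept cytosines, or 1.63%, on 100 scaffolds. Of these scaffolds, 61 held at least 20 kept cytosines and are described one by one, with 8111 cytosines in all. They comprised 52 unplaced scaffolds (6626 cytosines), 5 unlocalised scaffolds of chromosome Y (1038), 2 of chromosome 12 (396) and 2 of chromosome 19 (51). The other 39 scaffolds held 261 kept cytosines and enter only the sums over all scaffolds.

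Methylation of CpG cytosines was read by reduced representation bisulfite sequencing, in which DNA is cut at fixed sites with MspI and short fragments are sequenced after conversion of unmethylated cytosines. The tissue came from male rats of 8 to 9 weeks and, in the operated groups, the oesophageal defect had been closed with a bi-layer silk fibroin (BLSF) graft. Day 1 (5 libraries) was host oesophagus punched from within 2 mm of the defect 1 day after surgery, week 1 (4 libraries) was new tissue from the graft area 1 week after surgery, and the non-surgical controls (NSC, 4 libraries) were full-thickness oesophagus of unoperated rats. The site sampled and the time since surgery differ together between the groups, so their effects cannot be told apart, and in bulk tissue a change in the mix of cell types and a change within cells cannot be told apart either.

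Scaffolds of this kind often hold sequence that is repeated in the genome in near-identical copies, such as satellite arrays, duplicated segments and clusters of multi-copy genes. An assembler cannot order such copies and may collapse many of them into 1, and reads from all copies then pile up on the copy that is left. Repeated DNA in mammals is usually heavily methylated, whereas CpG-dense promoters and active multi-copy genes can be free of methylation. No genome sequence or annotation of mRatBN7.2 was used here, so the scaffolds are given by name and position, without genes or bases.

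Scaffold cytosines were found repeatedly from library to library. Of the kept scaffold cytosines, 39.9% were listed with at least 5 reads in all 13 libraries, against 7.70% of those on chromosomes 1 to 20. Much of this contrast came with a single library, day 1 replicate 2, which listed 75.3% of the kept scaffold cytosines and 15.9% of the kept cytosines on chromosomes 1 to 20. In all libraries but that one, 50.0% of the kept scaffold cytosines and 32.5% of the chromosomal ones were listed. Chromosome values of that library therefore rest on a small part of the cytosines. Before that filter, 82634 scaffold cytosines on 148 scaffolds were listed in at least 1 library, of which 27799 were listed in only 1 library and 10.1% were kept. Scaffolds took between 1.64% and 4.76% of the reads at listed cytosines. The highest share was in day 1 replicate 2, which was also the shallowest library, with 9676493 reads against 49782600 in the deepest, NSC replicate 1.

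Methylation of scaffold cytosines was mostly high or intermediate. In NSC, 42.5% of the kept scaffold cytosines lay above 80% methylation, 50.2% between 20% and 80%, and 7.29% below 20%. On chromosomes 1 to 20 the corresponding shares were 38.8%, 30.7% and 30.5%, so fewer scaffold cytosines were at low levels. This was not particular to scaffolds, as the shares were 50.7%, 45.7% and 3.62% on chromosome Y. On chromosome X they were 50.8%, 26.2% and 23.0%. Of the 610 scaffold cytosines below 20%, 163 lay on chrUn_NW_023637849v1, 162 on chr12_NW_023637711v1_random and 52 on chr12_NW_023637712v1_random. The cytosines on the opposite strands of a CpG site differed more on scaffolds: over 1794 sites with both strands kept, the median difference in NSC was 8.46 percentage points, against 3.47 points over 23658 such sites of chromosomes 1 to 20. The sites were not matched for methylation level, in which scaffolds and chromosomes differ as given above. These shares and medians are descriptions over cytosines, which are not replicates.

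The scaffolds fell into a broad main group and a few that stood apart. The median NSC methylation over the 61 scaffolds was 72.0%, and 52 of them lay at 60% or higher. The lowest level was that of chr12_NW_023637712v1_random (73 cytosines), which averaged 26.1% at day 1, 27.9% at week 1 and 25.9% in NSC. Its companion chr12_NW_023637711v1_random (323 cytosines) averaged 40.8% in NSC. The highest level in NSC, 88.2%, was that of chrUn_NW_023637741v1 (30 cytosines). Just inside the minimum of 20 cytosines, chrUn_NW_023637793v1 (22 cytosines) averaged 65.0% at day 1, 65.0% at week 1 and 52.4% in NSC. Just outside it, chrUn_NW_023637815v1 (18 cytosines) averaged 69.7%, 65.9% and 62.7% in the same groups.

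**Figure D1:**
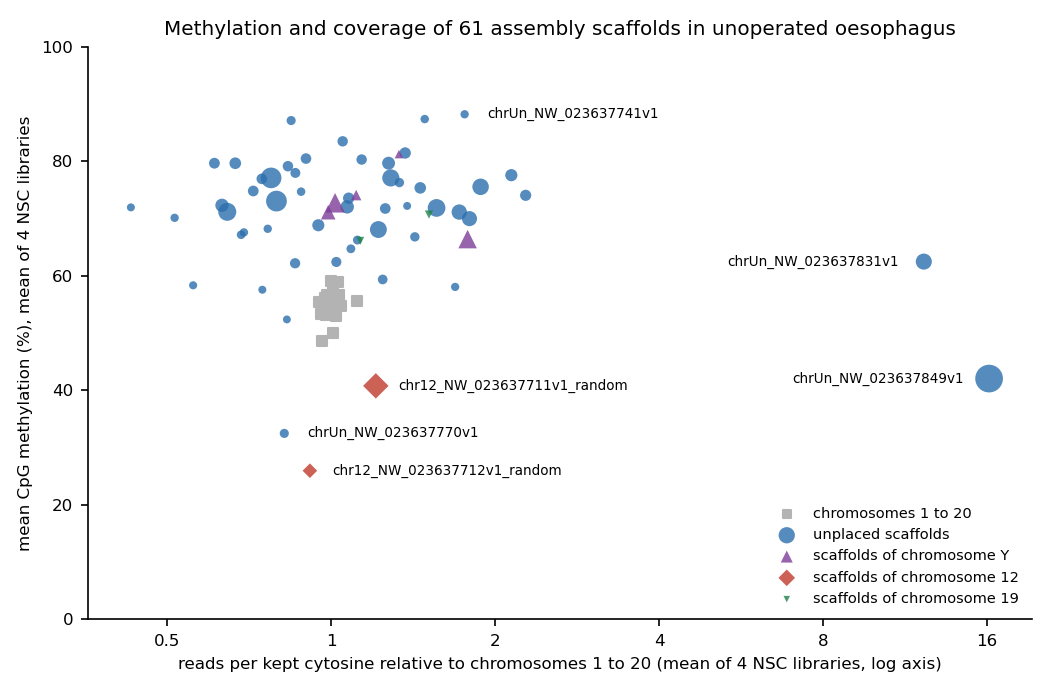
Mean CpG methylation (vertical axis, percent) against reads per kept cytosine relative to chromosomes 1 to 20 (horizontal log axis), each the mean of the 4 NSC libraries. Each coloured mark is 1 of the 61 scaffolds, sized by its kept cytosines, and grey squares are chromosomes 1 to 20; chrUn_NW_023637849v1 and chrUn_NW_023637831v1 stand far to the right of the rest, and the 2 scaffolds of chromosome 12 lie below it.

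Coverage was expressed as the mean number of reads per kept cytosine listed in a library, divided by the same mean over chromosomes 1 to 20 of that library. It counts fragments and is not a copy number, and because no cytosine with fewer than 5 reads was listed, it understates differences between sparse regions. The median scaffold had a relative coverage of 1.08 in NSC, with 26 of the 61 scaffolds below 1 and 4 above 2. A pair of scaffolds was covered far more deeply. On chrUn_NW_023637849v1 (834 cytosines) the relative coverage was 11.7, 9.21, 9.86, 9.95 and 21.9 in the day 1 libraries, 9.56, 14.1, 17.8 and 13.8 in week 1, and 14.4, 24.5, 16.4 and 9.31 in NSC. On chrUn_NW_023637831v1 (248 cytosines) it was 7.11, 5.16, 7.45, 8.45 and 12.7 at day 1, 7.33, 8.10, 9.39 and 9.17 at week 1, and 11.2, 16.8, 12.3 and 8.67 in NSC. The groups overlapped on both scaffolds, and the same library, replicate 5, was the highest of the day 1 libraries on both. Across the 61 scaffolds, NSC coverage and NSC methylation were nearly unrelated (Spearman's rho 0.04, a description over scaffolds read from the same 4 libraries).

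These 2 scaffolds dominated the scaffold reads. Of all reads at kept scaffold cytosines, chrUn_NW_023637849v1 alone took 42.7% ± 9.51 at day 1 (SD, n = 5), 47.5% ± 6.65 at week 1 (SD, n = 4) and 53.0% ± 8.76 in NSC (SD, n = 4). The next, chrUn_NW_023637831v1, took 8.07% ± 2.43, 8.61% ± 1.46 and 12.2% ± 0.40 in the same groups. Any mean that weights reads equally is therefore largely a reading of a single scaffold. Methylation of all scaffold cytosines with each cytosine counted once was 70.9% ± 1.05 at day 1, 69.2% ± 1.36 at week 1 and 67.7% ± 0.66 in NSC, whereas pooled reads gave 52.4%, 49.6% and 45.3%. Without the 2 scaffolds the level per cytosine was 75.3% ± 0.31 at day 1, 72.9% ± 1.28 at week 1 and 70.9% ± 0.57 in NSC.

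The first comparison set tissue at the edge of the defect on day 1 against unoperated oesophagus. Most scaffolds had higher methylation at day 1: the mean was higher on 58 of 61 scaffolds, by a median of 3.82 percentage points. The chromosomes were higher by a similar amount, with a median of 3.76 points over 22 chromosomes, all of them higher. These chromosome values include day 1 replicate 2, which averaged 51.5% on chromosomes 1 to 20, over 79678 of 501791 kept cytosines. The other day 1 libraries averaged 59.0% to 60.4% there and the NSC libraries 54.0% to 54.3%. Replicate 2 also enters the centred values below. Day 1 and NSC libraries did not overlap on 26 of 61 scaffolds and 3 of 22 chromosomes, all higher at day 1 (34.9% of all 83 scaffolds and chromosomes). In exact two-sided permutation tests, 31 of 61 scaffolds and 3 of 22 chromosomes had an unadjusted p below 0.05 (41% of the 83 sequences). None passed Benjamini-Hochberg adjustment, where the smallest adjusted p was 0.110. The smallest p that 5 against 4 libraries allow is 0.0159, which all 26 scaffolds without overlap reach. Limma over the same values, a test that borrows the spread across sequences, was added after the data had been seen. It called 31 of 61 scaffolds and 7 of 22 chromosomes higher at day 1 (45.8% of the 83 sequences) and 0 lower. The limma count depended on single libraries: it was between 13 and 19 without day 1 replicate 1, 3, 4 or 5 or without any 1 NSC replicate, and of the 19 without replicate 5, 1 was lower. After each library was centred on its own mean over chromosomes 1 to 20, the median day 1 difference over scaffolds was -0.13 points. With this centring and only the cytosines listed in every library, it was 0.45 points over 33 scaffolds. On those cytosines, before centring, limma called 22 of 33 scaffolds and 22 of 22 chromosomes higher (80% of the 55 sequences). The median shift on scaffolds was thus close to that of the chromosomes. The mean over all cytosines listed in every library rose less on scaffolds. It was 68.9% at day 1 and 66.8% in NSC there, against 55.4% and 51.9% on chromosomes 1 to 20. This scaffold mean includes the low-methylation stretches described below, which were lower at day 1. The stretch of chrUn_NW_023637849v1 (436 such cytosines) was at 21.9% at day 1 and 30.8% in NSC. That of chrUn_NW_023637831v1 (82 such cytosines) was at 30.3% and 39.8%. The rise on the cytosines outside these stretches was not computed.

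Large scaffolds of the main group showed the pattern per library. On chrY_NW_023637722v1_random (345 cytosines) methylation was 74.1%, 70.8%, 71.8%, 74.0% and 72.9% at day 1 and 67.4%, 67.4%, 66.6% and 64.2% in NSC. Every day 1 library lay above every NSC library, and the difference of 6.30 points had an adjusted p of 0.110 in the exact permutation test and 0.00268 in limma. On chrUn_NW_023637846v1 (279 cytosines) the values were 74.4%, 71.9%, 72.0%, 72.0% and 72.7% at day 1 and 68.5%, 68.5%, 70.5% and 64.8% in NSC. The groups were again apart, by 4.51 points (exact permutation adjusted p = 0.110, limma adjusted p = 0.020). On chrUn_NW_023637756v1 (264 cytosines) the day 1 libraries were at 79.6%, 75.8%, 80.2%, 78.3% and 79.8% and the NSC libraries at 75.3%, 75.5%, 75.7% and 75.8%. Here replicate 2 at day 1 lay only just above the highest NSC library, and the difference of 3.16 points had an adjusted p of 0.110 in the exact permutation test and 0.0582 in limma.

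The other large scaffolds of the main group followed the same order. On chrUn_NW_023637832v1 (447 cytosines) methylation was 79.2%, 75.7%, 77.6%, 75.6% and 78.0% at day 1 and 72.4%, 71.1%, 75.4% and 73.4% in NSC, a difference of 4.18 points (limma adjusted p = 0.0334). On chrUn_NW_023637830v1 (441 cytosines) it was 82.4%, 79.3%, 80.5%, 80.8% and 81.5% at day 1 and 78.7%, 77.2%, 77.8% and 74.9% in NSC, a difference of 3.78 points (limma adjusted p = 0.0334). Both had every day 1 library above every NSC library, as had the next 3. On chrY_NW_023637721v1_random (388 cytosines) day 1 lay at 74.6% to 77.2% and NSC at 71.5% to 74.3%, apart by 3.39 points. On chrUn_NW_023637837v1 (325 cytosines) day 1 lay at 75.2% to 78.8% and NSC at 67.9% to 74.2%, apart by 5.71 points, the widest of these. On chrUn_NW_023637843v1 (313 cytosines) day 1 lay at 73.45% to 76.55% and NSC at 70.04% to 73.35%, apart by 3.33 points, with the lowest day 1 library only just above the highest NSC library. The groups overlapped on chrUn_NW_023637834v1 (290 cytosines), at 77.4% to 83.5% at day 1 and 75.3% to 78.1% in NSC, where replicate 2 at day 1 lay inside the NSC range.

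The widest differences were on smaller scaffolds with intermediate methylation, named here after their values were seen. On chrUn_NW_023637770v1 (46 cytosines) methylation was 44.7%, 57.6%, 47.4%, 49.8% and 42.3% at day 1 and 37.6%, 31.5%, 34.7% and 26.0% in NSC. All day 1 libraries lay above all NSC libraries, with a difference of 15.9 points (limma adjusted p = 0.00356). The highest day 1 value (replicate 2) and the lowest NSC value (replicate 4) rest on 24 and 22 of the 46 cytosines. The other libraries of these groups listed 43 to 46. The next widest, 12.6 points on chrUn_NW_023637793v1 (22 cytosines), had overlapping groups, with 56.5% to 72.3% at day 1 and 35.1% to 61.6% in NSC (limma adjusted p = 0.0353). Its lowest NSC value, that of replicate 4, rests on 14 of the 22 cytosines. On chrUn_NW_023637841v1 (24 cytosines) the day 1 libraries lay at 66.4% to 74.4% and the NSC libraries at 54.8% to 59.6%, a difference of 11.7 points (limma adjusted p = 0.00165). On chrUn_NW_023637836v1 (59 cytosines) they lay at 66.5% to 73.1% at day 1 and 57.2% to 61.8% in NSC, a difference of 9.81 points (limma adjusted p = 0.000709). The week 1 means lay between those of day 1 and NSC on these scaffolds other than chrUn_NW_023637793v1.

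The 3 scaffolds with lower methylation at day 1 were chrUn_NW_023637849v1, chrUn_NW_023637831v1 and chrY_NW_023637718v1_random, and groups overlapped on each. The first was at 33.9%, 34.0%, 32.3%, 34.4% and 48.9% at day 1, 37.6%, 45.9%, 43.0% and 33.7% at week 1, and 39.1%, 43.3%, 46.0% and 39.8% in NSC. The second was at 55.3%, 52.9%, 63.9%, 61.6% and 67.2% at day 1 and 62.0%, 60.5%, 63.1% and 64.4% in NSC. Both had replicate 5 as the highest day 1 library. The last of the 3, with 77 cytosines, was at 75.5%, 48.1%, 73.9%, 75.5% and 65.4% at day 1 and 71.5%, 70.5%, 83.5% and 71.0% in NSC. Replicate 2 at day 1 was the low value there and NSC replicate 3 the high one. They listed 20 and 57 of the 77 cytosines, against 62 to 77 in the other day 1 and NSC libraries, so these means rest on partly different cytosines. On chr12_NW_023637711v1_random, replicate 2 at day 1 stood apart in the other direction, at 52.2% against 41.0% to 44.0% in the other 4 day 1 libraries and 39.8% to 42.1% in NSC. That value rests on 82 of the 323 cytosines, against 257 to 312 in the other day 1 libraries.

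**Figure D2:**
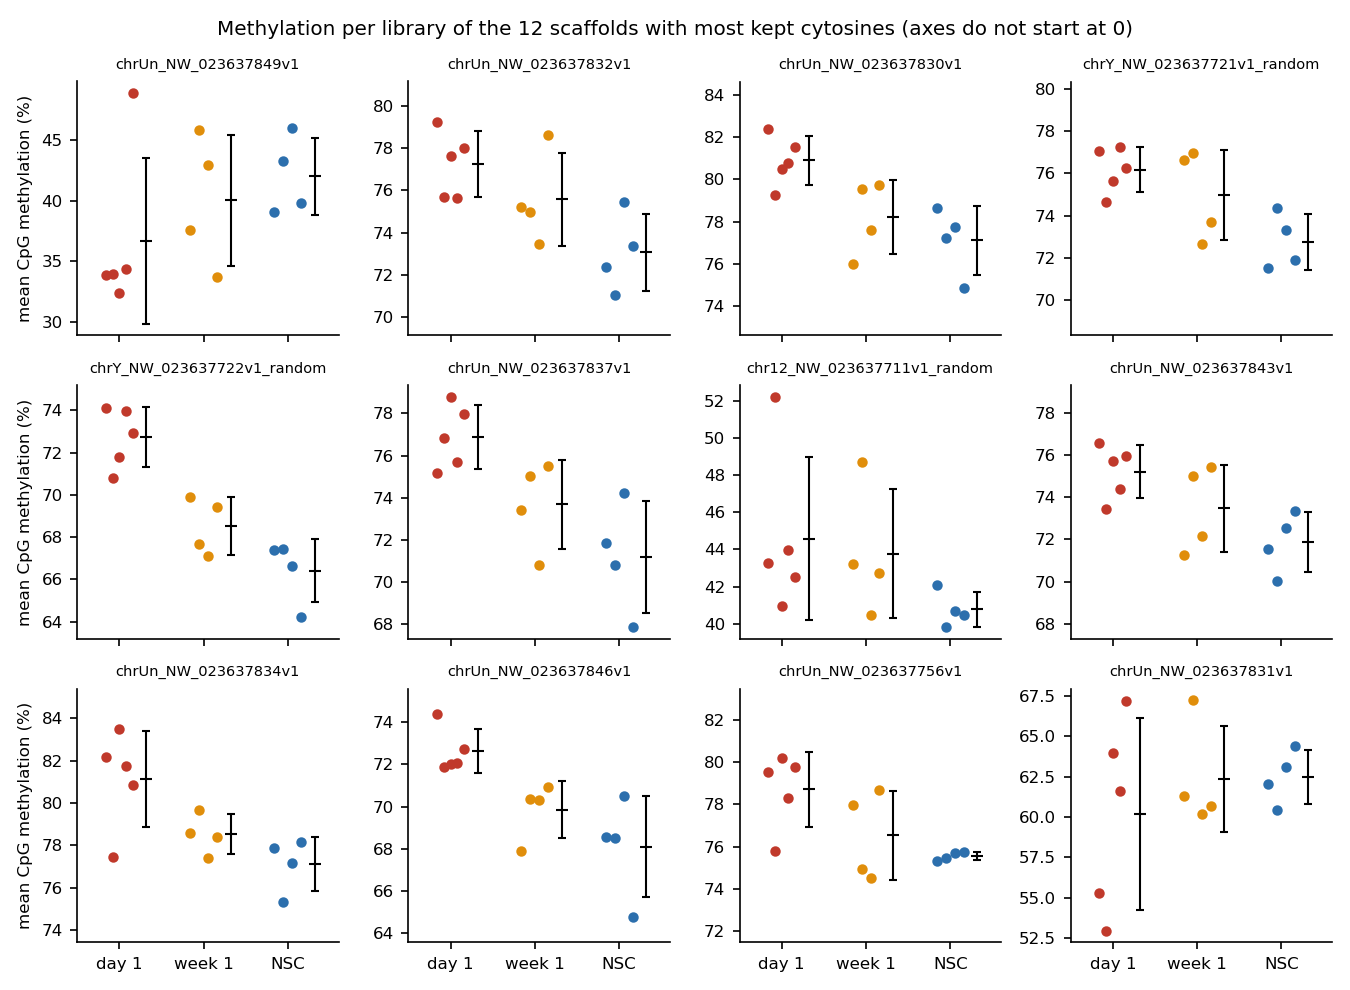
Mean CpG methylation (percent) of the 12 scaffolds with most kept cytosines, 1 panel per scaffold. Each point is a library, the bar gives the group mean ± SD (n = 5 at day 1, n = 4 at week 1 and in NSC), and vertical axes differ between panels and do not start at 0. Day 1 lies above NSC on 10 of the 12 scaffolds by the mean, and chrUn_NW_023637849v1 and chrUn_NW_023637831v1 are the exceptions.

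The second comparison set the new tissue at 1 week against unoperated oesophagus. Methylation was higher at week 1 on 48 of 61 scaffolds, by a median of 1.83 points, against 3.93 points over the chromosomes. Groups did not overlap on 5 scaffolds, all higher at week 1, against 20 of 22 chromosomes and 30.1% of all 83 sequences. No scaffold was called by the exact permutation test (smallest adjusted p = 0.116) or by limma. Unadjusted p of the exact test lay below 0.05 on 5 scaffolds, against 20 of 22 chromosomes and 30.1% of the 83 sequences. The smallest p of that test with 4 against 4 libraries is 0.0286. Limma called 3 scaffolds without day 1 replicate 2 and 1 without week 1 replicate 3 or 4. Over the 33 scaffolds with at least 20 cytosines listed in every library, which holds the cytosines constant, the median difference was 1.39 points on scaffolds and 1.99 points on chromosomes, and limma called 2 of the 33 scaffolds, both higher, against 38.2% of the 55 sequences. The third comparison, week 1 against day 1, gave lower methylation at week 1 on 52 of 61 scaffolds, by a median difference of -2.09 points, against 0.11 points over the chromosomes, of which 12 of 22 were higher. Week 1 and day 1 libraries did not overlap on 7 scaffolds, all lower at week 1, and on 0 chromosomes (8.43% of the 83 sequences). The exact permutation test called 0 scaffolds, with an unadjusted p below 0.05 on 13 scaffolds and 0 chromosomes (15.7% of the sequences). Limma called 1 scaffold lower and 0 chromosomes (1.2%). With 1 library left out, limma called 3 without day 1 replicate 2, 2 without week 1 replicate 2, 1 without day 1 replicate 5, week 1 replicate 4 or NSC replicate 2 or 4, and 0 without each of the others. The day 1 chromosome values include replicate 2, at 51.5% on chromosomes 1 to 20 against 59.0% to 60.4% in the other day 1 libraries. On the cytosines listed in every library, the median difference was -2.07 points over 33 scaffolds and -1.42 points over the chromosomes, 0 of which were higher. Scaffolds and chromosomes thus both had lower medians at week 1 on these cytosines. There limma called 8 scaffolds lower, against 45.5% of the 55 sequences. The 3 comparisons share libraries and are not independent of one another.

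Coverage also shifted between groups on a set of scaffolds. At day 1 relative coverage was higher than in NSC on 47 of 61 scaffolds, with a median of 1.16-fold over scaffolds and 0.97-fold over chromosomes, each fold being a ratio of geometric means over libraries. Day 1 and NSC libraries were apart on 8 scaffolds, all higher at day 1, and on 0 chromosomes (9.64% of the 83 sequences). The exact permutation test called 0 scaffolds after adjustment (smallest adjusted p = 0.359). Its unadjusted p lay below 0.05 on 18 scaffolds and 0 chromosomes (21.7% of the sequences). Limma, added after the data had been seen, called 8 scaffolds higher and 0 lower, and 0 chromosomes (again 9.64% of the 83 sequences). These 8 were chrUn_NW_023637769v1, chrUn_NW_023637785v1, chrUn_NW_023637787v1, chrUn_NW_023637830v1, chrUn_NW_023637832v1, chrUn_NW_023637837v1, chrUn_NW_023637839v1 and chrUn_NW_023637851v1. Their folds at day 1 ran between 1.99 and 3.18. Day 1 and NSC were apart on 5 of them and overlapped on 3, chrUn_NW_023637769v1, chrUn_NW_023637787v1 and chrUn_NW_023637832v1, so 3 of the 8 scaffolds without overlap were not among the 8 called.

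The library values are given for 3 of the scaffolds that were called and apart, and for 1 that was called with overlapping groups. On chrUn_NW_023637830v1 (441 cytosines) relative coverage was 0.97, 2.66, 1.61, 2.03 and 1.81 at day 1, 1.53, 1.64, 1.64 and 0.98 at week 1, and 0.83, 0.83, 0.58 and 0.86 in NSC. On chrUn_NW_023637837v1 (325 cytosines) it was 0.80, 3.36, 1.61, 1.95 and 1.61 at day 1, 1.37, 1.82, 1.58 and 0.90 at week 1, and 0.60, 0.77, 0.50 and 0.71 in NSC. Every day 1 and every week 1 library lay above every NSC library on both. Their day 1 folds were 2.25 (limma adjusted p = 0.0269) and 2.65 (limma adjusted p = 0.0276). On chrUn_NW_023637785v1 (24 cytosines), the scaffold of lowest coverage in NSC, the values were 0.57, 2.11, 0.87, 1.36 and 1.16 at day 1, 0.90, 1.19, 1.07 and 0.62 at week 1, and 0.40, 0.53, 0.32 and 0.46 in NSC. The groups were apart there too, with a day 1 fold of 2.62 (limma adjusted p = 0.0276). On chrUn_NW_023637832v1 (447 cytosines) it was 0.84 in day 1 replicate 1 and up to 2.57 in the other day 1 libraries, 1.45, 1.47, 1.46 and 0.85 at week 1, and 0.73, 0.88, 0.66 and 0.90 in NSC. Replicate 1 at day 1 and replicate 4 at week 1 lay inside the NSC range, and the day 1 fold was 1.99 (limma adjusted p = 0.0464).

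The same libraries were at the ends on these scaffolds. Replicate 2 at day 1, the shallowest library, was the highest of 13 on all 8 scaffolds, and NSC replicate 3 was the lowest on all 8. Over the 61 scaffolds, they were highest on 27 and lowest on 20. Without day 1 replicate 2 the folds of the 8 scaffolds ran between 1.76 and 2.68 and limma called 5 of them. The count also moved when other libraries were left out: limma called 16 without day 1 replicate 1, 4 without day 1 replicate 3, 0 without day 1 replicate 4, NSC replicate 1 or NSC replicate 3, 2 without day 1 replicate 5 or NSC replicate 4, 5 without week 1 replicate 1, 2 or 3, 6 without NSC replicate 2 and 10 without week 1 replicate 4. At week 1, coverage was higher than in NSC on 44 of 61 scaffolds, with a median of 1.17-fold. Groups did not overlap on 7 of them, all higher at week 1, and on 0 chromosomes (8.43% of the 83 sequences). Neither the exact permutation test nor limma called any, although limma called 5 without day 1 replicate 1. Unadjusted p of the exact test lay below 0.05 on 7 scaffolds and 0 chromosomes (8.43% of the sequences). Between week 1 and day 1 neither test called a scaffold and none was without overlap. The exact test had an unadjusted p below 0.05 on 1 scaffold and 0 chromosomes (1.2% of the sequences). What part depth plays in these coverage values was not tested.

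**Figure D3:**
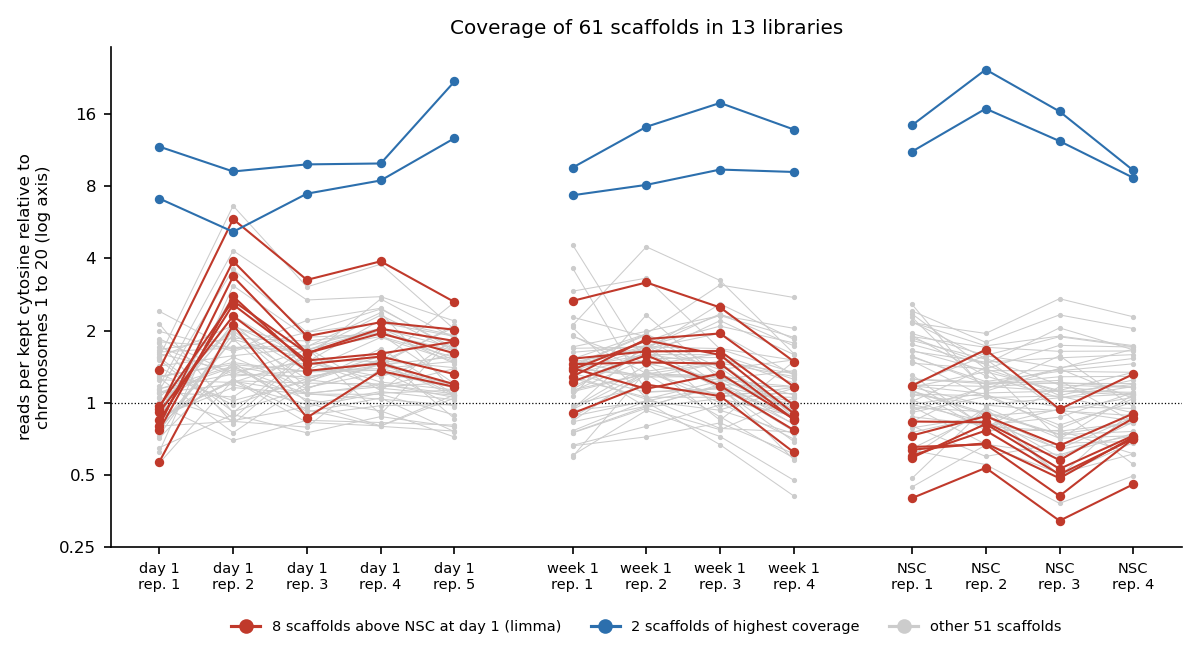
Reads per kept cytosine relative to chromosomes 1 to 20 (log axis) for 61 scaffolds in 13 libraries. Lines join the values of 1 scaffold within a group, replicates having no order; the 8 scaffolds called by limma (red) peak in day 1 replicate 2 and are lowest in NSC replicate 3, and the 2 scaffolds of highest coverage (blue) peak in day 1 replicate 5, week 1 replicate 3 and NSC replicate 2.

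The deepest scaffold, chrUn_NW_023637849v1, consisted of a highly methylated part and a low-methylation stretch. The stretch, bounded after its values were seen and therefore given without a test, was the run of 1000 bp tiles below 60% in NSC, no more than 4 kb apart, with the most kept cytosines. It ran over positions 60001 to 78000 and held 605 of the 834 kept cytosines in 14 tiles. Its tiles had NSC levels of 15.7% to 53.0%, whereas 19 of the 24 other tiles of the scaffold were above 60%. Inside the stretch, methylation was 18.6%, 19.3%, 14.4%, 17.6% and 38.3% at day 1, 24.8%, 32.7%, 31.1% and 20.1% at week 1, and 26.4%, 31.4%, 36.3% and 28.0% in NSC. Replicates 1 to 4 of day 1 lay below every NSC library and below every week 1 library, and replicate 5 lay above every other library. The order against week 1 depended on the measure. Over the 436 cytosines listed in every library, day 1 replicate 1 (19.7%) lay above week 1 replicate 4 (18.0%). With reads pooled, day 1 replicates 1 and 2 (16.5% and 20.9%) lay above week 1 replicate 4 (15.9%). Against NSC the order held in both, most narrowly with reads pooled, at 20.9% against 21.3%. The group means were 21.6% ± 9.50 at day 1 (SD, n = 5), 27.1% ± 5.81 at week 1 (SD, n = 4) and 30.5% ± 4.39 in NSC (SD, n = 4). The day 1 difference was -8.91 points, and -13.1 points without replicate 5. Of the 605 cytosines, 514 had a lower mean at day 1 than in NSC, and 554 without replicate 5. By tile, 13 of 14 were lower at day 1, and replicate 5 was the highest day 1 library in 13.

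As a mean, the remaining 229 cytosines of the scaffold showed instead the order of groups seen on most scaffolds. They averaged 76.5% ± 0.93 at day 1, 75.2% ± 1.59 at week 1 and 74.0% ± 1.52 in NSC. Their relative coverage was 3.96 ± 1.75 at day 1, 4.56 ± 2.67 at week 1 and 2.46 ± 0.67 in NSC, against 15.8 ± 7.01, 17.2 ± 4.41 and 21.1 ± 8.49 inside the stretch. The cytosines outside the stretch were not uniform. All 7 cytosines of the tile at 82001 to 83000, described below, had a lower mean at day 1 than in NSC. The stretch alone held 39.0% ± 9.83 of all reads at kept scaffold cytosines at day 1, 43.3% ± 7.76 at week 1 and 50.8% ± 8.92 in NSC. Within the stretch, relative coverage in day 1 replicate 5 was 27.9, against 10.4 to 15.2 in the other day 1 libraries, so this library was highest at day 1 in both coverage and methylation. Whether its higher coverage bears on its methylation was not tested.

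A second stretch, found by the same rule, lay on chrUn_NW_023637831v1, at positions 76001 to 79000, with 91 of its 248 kept cytosines. Methylation inside it was 14.9%, 35.7%, 29.9%, 25.1% and 42.4% at day 1, 31.6%, 49.1%, 38.1% and 29.9% at week 1, and 32.8%, 32.7%, 39.9% and 44.8% in NSC. The groups overlapped, and replicate 5 was again the highest day 1 library. The day 1 difference was -7.96 points, and -11.2 points without replicate 5. The other 157 cytosines of this scaffold averaged 81.5% ± 2.65 at day 1, 78.8% ± 1.73 at week 1 and 77.8% ± 1.39 in NSC, the same order of groups as on most scaffolds. Day 1 and NSC overlapped, the lowest day 1 library being at 77.5% and the highest NSC library at 79.0%. Over the 32 of these cytosines listed in every library, the means were 80.81% at day 1, 79.83% at week 1 and 79.86% in NSC.

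**Figure D4:**
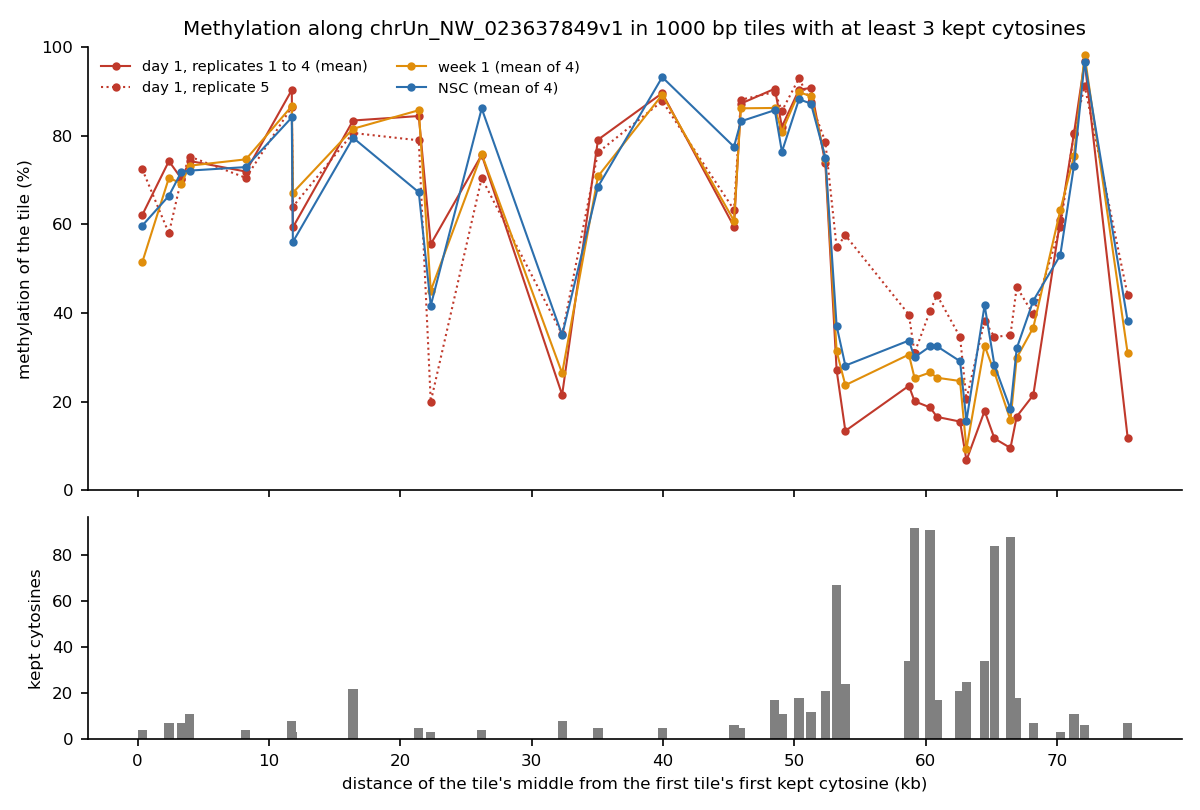
Methylation (percent, upper panel) and number of kept cytosines (lower panel) of 1000 bp tiles along chrUn_NW_023637849v1, by distance in kb from the first kept cytosine of its first tile. Solid lines are means of day 1 replicates 1 to 4, of the 4 week 1 and of the 4 NSC libraries, and the dotted line is day 1 replicate 5; in the low-methylation stretch at the right the day 1 mean runs below NSC in 13 of 14 tiles, and replicate 5 is the highest day 1 library in 13 of the 14.

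To locate differences, cytosines were summed in 1000 bp tiles with at least 3 kept cytosines and tested with edgeR's quasi-likelihood test over the 65878 tiles of all scaffolds and chromosomes, of which 844 lay on 85 scaffolds. Calls needed both a Benjamini-Hochberg adjusted p under 0.05 and group means 10 or more points apart. Between day 1 and NSC, 8 scaffold tiles were called, or 0.948%, against 8.7% of all tiles. Scaffold tiles differed about as much as all tiles in the median (3.45 against 3.34 points), with a median of 94 against 65 reads per tile and library and a median SD between NSC libraries of 5.75 against 5.32 points. Groups did not overlap in 80 scaffold tiles, 78 of them higher at day 1, or 9.48%, against 18.7% of all tiles. Between week 1 and NSC, 1 scaffold tile was called, or 0.118%, against 4.51% of all tiles. It was lower at week 1, against 1.24% of all tiles called lower and 3.27% called higher. Groups did not overlap in 35 (4.15%, against 15.3% of all tiles). Between week 1 and day 1, edgeR called 0 scaffold tiles against 0% of all tiles, with 24 unadjusted p below 0.05 (2.84%, against 6.18% of all tiles), and limma and quasi-binomial regression also called 0. Groups did not overlap in 33 scaffold tiles there, or 3.91%, against 3.97% of all tiles.

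Of the 8 tiles called at day 1, 4 were higher and 4 lower, against 6.9% of all tiles called higher and 1.81% called lower. This split depended on the test and its scaling. Limma on tile percentages called 33 higher and 1 lower, or 4.03% of scaffold tiles, against 11.3% of all tiles (9.3% higher and 1.96% lower). Quasi-binomial regression called 39 higher and 1 lower, or 4.74%, against 13.4% of all tiles (11.1% higher and 2.34% lower). Limma after centring each library on its median tile called 4 higher and 71 lower, or 8.89%, against 18% of all tiles (4.68% higher and 13.4% lower). At week 1 the same 3 tests called 8, 6 and 14 scaffold tiles, or 0.948%, 0.711% and 1.66%, against 7.38%, 6.28% and 6.84% of all tiles. The number called was 15 without day 1 replicate 5, of which 12 were lower and 10 lay on chrUn_NW_023637849v1. It was 4 without day 1 replicate 1, 2, 3 or 4 or NSC replicate 1 or 2, 3 without NSC replicate 3, and 5 without NSC replicate 4. At week 1 the count was 3 without week 1 replicate 3 and 2 without NSC replicate 2.

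The largest increase was on chrY_NW_023637721v1_random at 39001 to 40000, with 4 cytosines and 35 to 148 reads per library. Methylation of this tile was 64.7%, 61.2%, 70.4%, 68.0% and 59.5% at day 1, 66.9%, 68.6%, 50.8% and 61.7% at week 1, and 34.0%, 52.1%, 12.8% and 28.6% in NSC. Day 1 lay above NSC in every library, by 32.9 points, with a log2 odds ratio of 1.98 (edgeR adjusted p = 0.0171, and 0.00865 to 0.0695 over 19 alternatives, the highest without NSC replicate 3). At week 1 the difference was 30.2 points and narrowly missed the call (edgeR adjusted p = 0.0598), with 1 library inside the NSC range.

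On chrUn_NW_023637790v1 the tile at 10001 to 11000 rests on 5 cytosines and few reads, 22 to 98 per library. It was at 75.00%, 60.4%, 68.4%, 50.5% and 56.2% at day 1 and at 23.7%, 40.3%, 45.5% and 28.6% in NSC. The groups did not overlap and differed by 27.6 points (edgeR adjusted p = 0.0480, and 0.0142 to 0.157 over 19 alternatives), but the call was lost in 11 of these, including each in which a day 1 or NSC library was left out. Week 1 lay between, at 40.4% to 57.1%.

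A pair of tiles rose by little more than the minimum difference. The tile at 38001 to 39000 of chrUn_NW_023637845v1 (20 cytosines) was at 81.4%, 88.3%, 80.9%, 81.8% and 78.0% at day 1 and 71.0%, 67.7%, 69.3% and 69.7% in NSC. The groups were apart by 12.6 points (edgeR adjusted p = 0.0377, lost in 10 of 21 alternatives, 8 of which each left out 1 library of the groups compared). The tile at 26001 to 27000 of chrUn_NW_023637753v1 (9 cytosines) was at 84.5% to 89.3% at day 1 and 69.0% to 82.0% in NSC, apart by 10.4 points (edgeR adjusted p = 0.0340, lost in 9 of 21 alternatives, 7 of which left out a library).

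A single tile without overlap fell at both times. The tile at 8001 to 9000 of chrUn_NW_023637778v1 rests on 3 cytosines and few reads, 10 to 119 per library. It was at 90.5%, 73.7%, 86.6%, 88.5% and 90.9% at day 1, 76.5%, 79.4%, 75.9% and 84.2% at week 1, and 100%, 100%, 97.3% and 100% in NSC. Every post-operative library lay below every NSC library. The differences were -13.3 points at day 1 (edgeR adjusted p = 0.0207, lost without NSC replicate 1 or 2 at adjusted p of 0.0730 and 0.0665) and -20.3 points at week 1 (edgeR adjusted p = 0.0114, called in all 18 alternatives in which the tile was tested).

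The other 3 called tiles were on chrUn_NW_023637849v1 and were lower at day 1, with overlapping groups. The tile at 71001 to 72000 (34 cytosines) was at 12.7%, 19.5%, 18.7%, 20.8% and 38.3% at day 1 and 29.7%, 38.4%, 48.9% and 50.1% in NSC. Replicate 5 lay inside the NSC range and the other 4 day 1 libraries below it. The difference was -19.8 points (edgeR adjusted p = 0.00597), and the call was lost with limma (0.0738), with quasi-binomial regression (0.221) and when the cytosines of highest coverage were left out (0.581). The tile at 75001 to 76000 differed by -17.7 points (edgeR adjusted p = 0.0133) and that at 82001 to 83000, outside the stretch, by -19.9 points (edgeR adjusted p = 0.0321). These 2 calls were lost in 2 of 20 and 10 of 20 alternatives.

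**Figure D5:**
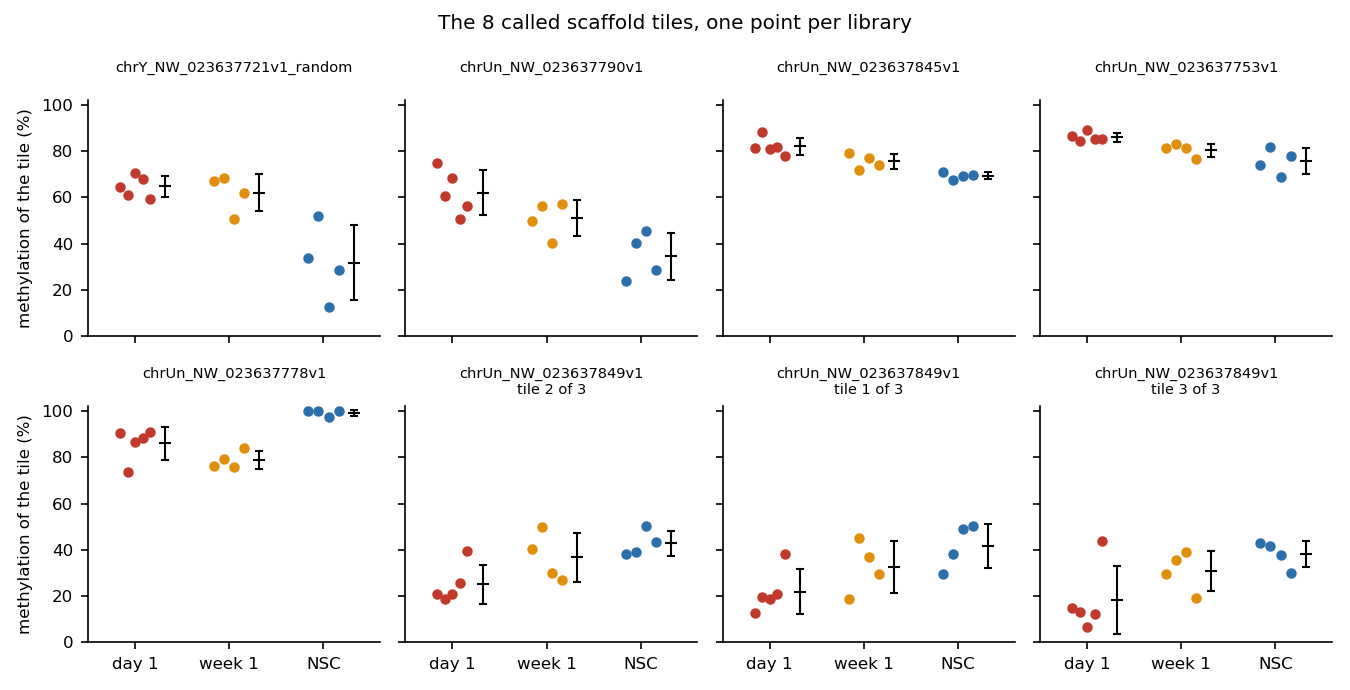
Methylation (percent) of the 8 called scaffold tiles, 1 panel per tile, ordered by the day 1 difference. Each point is a library and the bar gives the group mean ± SD; the upper row holds the 4 tiles that were higher at day 1 than in NSC and the lower row the 4 that were lower, and in the 3 tiles of chrUn_NW_023637849v1, numbered by position, 1 day 1 library lies above the other 4.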

How the data were processed

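DNA was cut with MspI, depleted of fragments above 300 bp, bisulfite-converted and made into libraries, per the labels' protocols. Trim Galore, FastQC, Bismark 0.23.0, methylKit 1.14.2 and the assembly mRatBN7.2 are named, per the submitters' processing notes. For each CpG cytosine and strand, the deposited files give 2 counts, methylated reads and all reads, and a methylation percent. Only cytosines with at least 5 reads are listed, which was checked on the values. Counts were used without normalization, and percent was recomputed from them. How reads that fit several copies were treated is not given in the sources used here.

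Of 14 samples, 13 had a file, and 1 week 1 sample was not analysed here. Separate animals are not stated for the samples, so the p-values describe spread among these samples alone, and that spread may be technical. Sample codes follow the groups, so processing order and group cannot be told apart. Members, lists and tests were chosen with earlier results of these data known.

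Scaffold means count each cytosine listed in a library once. They and log2 relative coverage were compared by exact two-sided permutation tests, adjusted over 249 tests (83 sequences, 3 contrasts). Tiles were tested with edgeR 4.0.16 in R 4.3.3, with a common dispersion, 1 effect per library and group effects on the methylated count. A read covering several cytosines is counted at each, so counts of neighbouring cytosines are not independent. Limma 3.58.1, quasi-binomial regression and the alternatives in the closing section were also run. Named by rule were the 12 scaffolds with most cytosines, the extremes of coverage and NSC level, and up to 5 called tiles per direction without overlap. Scaffolds and tiles outside this rule were chosen after their values were seen. Tables were handled with pandas 2.3.3, numpy 2.4.6 and scipy 1.17.1 under Python 3.11.15.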

Additional observations from a re-analysis of the deposited data

Results flagged for a closer look

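Libraries that stood apart from the rest of their group were looked for with Dixon's ratio, which by chance marks about 1 group in 20. Over the 61 scaffolds it marked 9 of 183 sets of methylation values (4.92%) and 9 of 183 sets of coverage values (4.92%), close to that rate.

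Replicate 5 at day 1 stood apart on chrUn_NW_023637849v1, with methylation of 48.9% against 32.3% to 34.4% in the other day 1 libraries, and with a relative coverage of 21.9 against 9.21 to 11.7. It also stood apart inside the low-methylation stretch of that scaffold (38.3%) and in its tile at 82001 (44.0%).

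Replicate 2 at day 1 was high on chr12_NW_023637711v1_random, at 52.2% methylation over the 82 of 323 cytosines that it listed. It was low in the tile at 8001 of chrUn_NW_023637778v1, at 73.7%. In the same tile NSC replicate 3 was low, at 97.3% against 100% in the others. Replicate 2 at week 1 was high on chrUn_NW_023637831v1, at 67.2% methylation.

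Replicate 4 at week 1 had low relative coverage on chrUn_NW_023637832v1 (0.85) and chrUn_NW_023637830v1 (0.98). NSC replicate 3 had low relative coverage on chrUn_NW_023637830v1 (0.58).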

How the results depend on the processing

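Scaffold tiles called between day 1 and NSC numbered 8, and between week 1 and NSC 1. With at least 10 reads they numbered 4 and 2, with limma 34 and 8, with limma on centred libraries 75 and 14, with quasi-binomial regression 40 and 6, and with a 25 point minimum 2 and 0. Leaving out the highest coverage gave 4 at day 1, and at least 5 cytosines per tile gave 0 at week 1. Leaving out 1 library gave 3 to 15 and 1 to 3.

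Exact tests of scaffold means and coverage called 0 scaffolds in every setting run, which says nothing of stability: 4 against 3 libraries cannot reach a p below 0.0571, and too few tests reached the smallest p of the larger designs for an adjusted p below 0.05. Limma called 31 at day 1, 0 at week 1 and 1 between week 1 and day 1 by methylation, and 8, 0 and 0 by coverage. With cytosines listed in every library it called 22, 2 and 8 of 33 scaffolds by methylation, against 80%, 38.2% and 45.5% of the 55 sequences. Leaving out 1 library gave 13 to 36, 0 to 3 and 0 to 3 for methylation, and 0 to 16, 0 to 5 and 0 to 0 for coverage.

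The day 1 difference over all scaffold cytosines was 3.17 points, 7.03 with reads pooled, 2.04 with cytosines in every library, 4.41 without the 2 scaffolds of highest coverage, and 2.79 to 3.53 leaving out 1 library. At week 1 it was 1.52 points, 4.28 with reads pooled, and 0.90 to 2.00 leaving out 1 library, the lowest without week 1 replicate 2. Week 1 against day 1 gave -2.27 to -1.18. The causes were not tested. No call named here reversed. No paired analysis was possible because replicate numbers follow accession order and pair no samples.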
